A study of Mus musculus with 26 samples.

Results

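The wounded abdominal aorta of 5 mice, flushed 3 h after injury, was compared across all genes with the unwounded thoracic aorta of 9 other mice. These 14 libraries were 14 of the 26 in the series. They were chosen by their labels: the injured 3 h flush took the 5 libraries labelled as the injured abdominal segment at 3 h (mice C1A, C1B, C2A, C2C and C3B), and the uninjured flush took the 9 labelled as the uninjured thoracic segment. All mice were of strain C57BL6/J. The aorta was wounded by mechanical pressure, and RNA was collected by rinsing the vessel lumen with a lysis buffer, which takes mainly the endothelial lining. Of the other libraries, 9 flushes of the injured abdominal segment at 48 h and 3 of the vessel wall left after flushing are used for side values. The headers of the deposited counts write 0 h for the 5 injured columns, whereas the labels and the design text give 3 h.

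The uninjured flush came from mice whose abdominal aorta had been wounded 48 h earlier, so these animals were not unoperated. The 2 groups differ in aortic segment, in mouse and in time after the wound, and effects of these cannot be told apart. The labels give neither age nor sex. The labels divide the mice into 3 experimental batches, with 2, 2 and 1 injured 3 h libraries and 3, 3 and 3 uninjured ones. Each library was 1 mouse.

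Totals ran from 2657169 to 4346847 counts in the injured 3 h flush and from 1755773 to 5294304 in the uninjured flush. A mean of 11920 ± 460.4 genes had a count in the injured 3 h libraries and 11300 ± 891.3 in the uninjured ones (SD, n = 5 and 9, as for every mean of these groups below). In two-sided exact permutation tests total counts (adjusted p = 0.44), genes detected (0.358), mitochondrial share (0.268) and the share of the most counted gene (0.44) did not pass. Mitochondrial transcripts made up 4.11% to 6.76% of counts in the injured 3 h flush and 2.32% to 6.19% in the uninjured flush. Endothelial markers were abundant in both groups: 11 of them, among them Pecam1, Cdh5 and Vwf, summed to 13700 to 15510 CPM in the injured 3 h flush and 11640 to 13810 CPM in the uninjured flush. CPM are counts scaled to the library's total with TMM factors, and values after ± are standard deviations over the libraries of a group unless a standard error (SE) is named.

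The lining of the aorta is a single sheet of endothelial cells that keeps blood from clotting and leukocytes from sticking. Pressure that strips part of this sheet exposes the matrix beneath and sets off immediate-early transcription factors, NF-kB and STAT3 signalling, and the display of adhesion molecules in the cells at the wound. Platelets and neutrophils are known to collect on the bared surface within hours, and cells at the edge divide to close the gap on a later day.

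Of 13884 genes tested, 2230 (16.1%) were higher in the injured 3 h flush and 1535 (11.1%) were lower, by edgeR's quasi-likelihood test at an adjusted p under 0.05. At least 2-fold differences with the same threshold were found for 1253 genes (9.02%) higher and 825 (5.94%) lower. All 5 injured libraries lay above all 9 uninjured ones for 824 genes (5.93%) and below them for 331 (2.38%). The median log2 fold change over all genes was 0.00. The shares of 16.1% and 11.1% are the background for the counts of gene lists below. Without the 6 uninjured libraries that were shallower than every injured one, 1420 genes were higher and 1153 lower, and with the 14 libraries fitted alone 1297 were higher and 1230 lower. Without C2C and C3B, the injured libraries with the highest sums of neutrophil and erythroid markers, 1547 were higher and 859 lower. Where such a choice moved a list's count by over 1.5 times, the other count follows it in parentheses, for lower members where there were at least 3. Of 23 lists with 1 or 2 lower members, 17 had another lower count in at least 1 of 5 such fits. In bulk samples fewer cells of a type and less RNA per cell cannot be told apart, which holds for every difference described here.

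Among the genes with the smallest p, the metallothioneins stood far above the uninjured level. Mt1 and Mt2 encode small cysteine-rich proteins that bind zinc and copper. Mt2 gave 1198, 664, 578, 407 and 1001 CPM in C1A, C1B, C2A, C2C and C3B, and 0 to 6.48 CPM with a median of 0 in the uninjured flush. Mt1 gave 563, 431, 360, 299.8 and 494 CPM in the same libraries and 5.34 to 22.2 CPM with a median of 10.7 in the uninjured ones. No injured library came near the uninjured range of either gene. Their log2 fold changes were 8.97 ± 0.56 for Mt2 and 5.08 ± 0.30 for Mt1 (SE, edgeR adjusted p = 1.49e-11 and 4.27e-12).

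Other genes at the head of the ranking encode regulators of survival, receptors and signalling adaptors. Tnfaip8, a TNF-induced protein of apoptosis control, had 259 ± 45.6 CPM in the injured 3 h flush and 40.9 ± 7.67 CPM in the uninjured flush (log2 fold change 2.65 ± 0.12, adjusted p = 1.72e-14). The receptors Il4ra, shared by interleukin-4 and interleukin-13, and Il17ra, which binds interleukin-17, were both higher in every injured library. Il4ra averaged 209 ± 72.1 CPM injured and 25.5 ± 6.86 CPM uninjured. Il17ra gave 52.03, 58.1, 40.97, 49 and 191 CPM in the injured libraries, whereas 1 uninjured library held its only counts there, and its pooled ratio was 771 (95% interval 263 to 3743) for counting error. C3B was far above the other 4 for this gene. Cdkn1a, the cell cycle inhibitor p21, had 268, 239, 333, 238 and 200.4 CPM in the injured libraries and 9.81 to 43.04 CPM with a median of 15.3 in the uninjured ones (log2 fold change 3.85 ± 0.26, adjusted p = 8.48e-11). Also in the first 12 was Ccdc3, a secreted protein (831 ± 89.2 CPM injured and 129 ± 31.9 CPM uninjured). In the flushed vessel wall Ccdc3 averaged 1974 ± 161 CPM (n = 3), above its mean in either flush. Others were Cyth3, an exchange factor for Arf GTPases (718 ± 76.6 CPM injured and 158 ± 37.9 CPM uninjured), and the adhesion receptor Adgrg1 (314 ± 64.8 CPM injured and 65.5 ± 13.4 CPM uninjured). Tsc22d1, Cd9 and Litaf completed them (log2 fold changes 1.59 ± 0.11, 1.65 ± 0.12 and 2.38 ± 0.17).

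**Figure D1:**
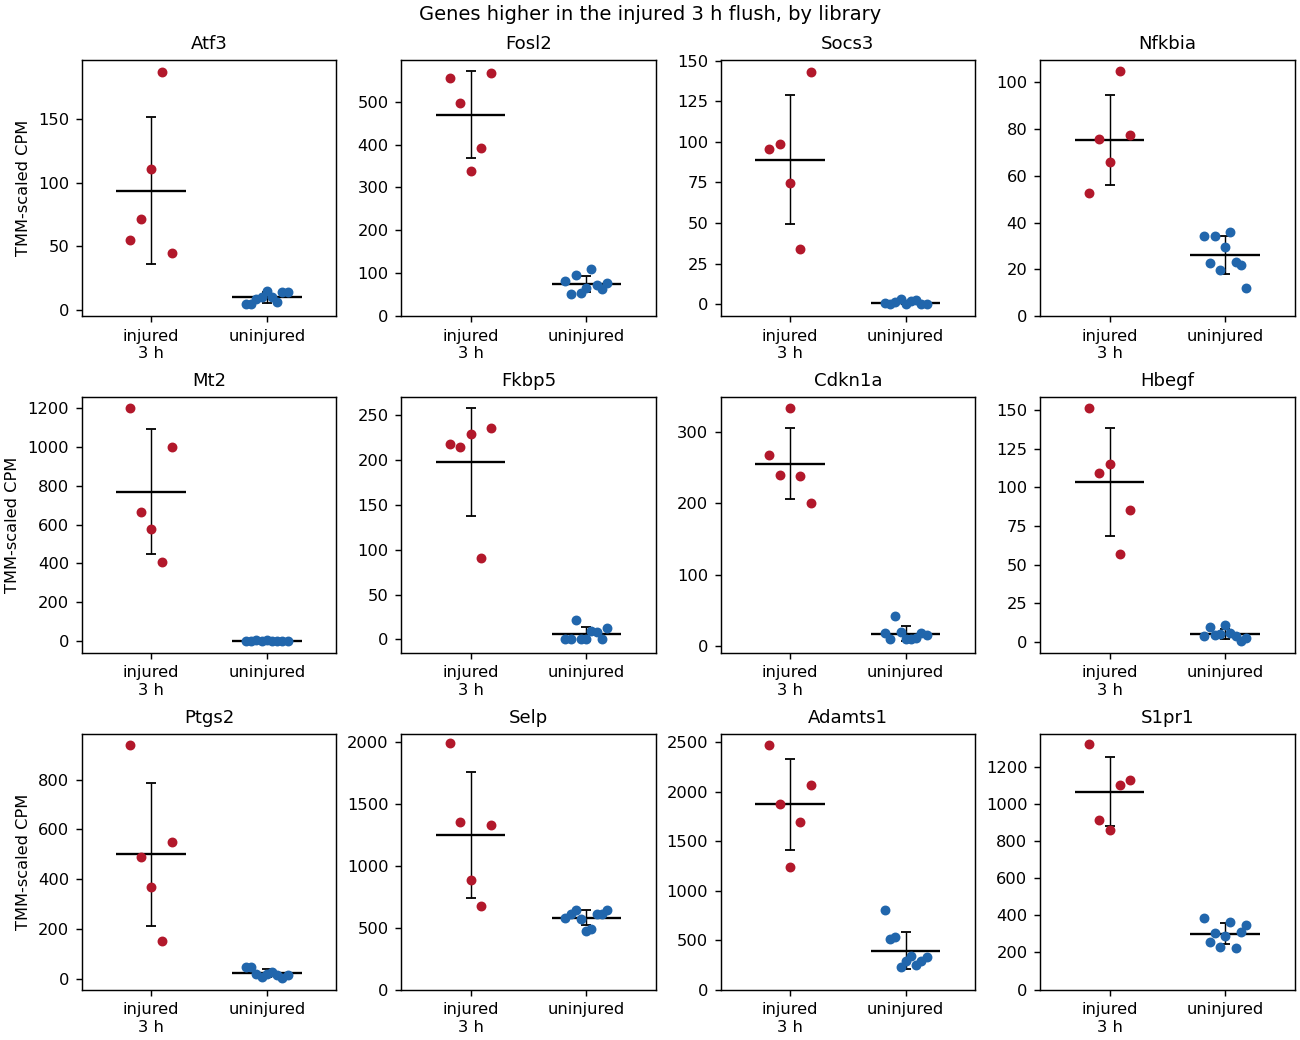
TMM-scaled CPM of 12 genes in each library, with the 5 injured 3 h libraries at left and the 9 uninjured ones at right in each panel; lines are means and bars are SDs. For each of these 12 genes all 5 injured libraries lie above all 9 uninjured ones.

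AP-1 is a dimer of Fos, Jun and ATF family proteins that binds DNA within minutes of a stimulus. Of its 14 tested members, 6 were higher in the injured 3 h flush, 1 lower and 7 did not pass, with a median log2 fold change of 0.92 (0.95 with genes absent from one group set at their bound). The share higher, 42.9%, stood against 16.1% over all genes. The members that rose were Fosl2, Atf3, Fosl1, Maff, Fosb and Mafk. Fosl2 gave 556, 496, 337, 393 and 567 CPM in the injured libraries and 51.5 to 111 CPM with a median of 71.5 in the uninjured ones (log2 fold change 2.65 ± 0.20, edgeR adjusted p = 4.84e-10). Atf3, a stress-induced repressor and activator, gave 55, 71.2, 110.4, 187 and 45.03 CPM in the injured libraries and 4.34 to 14.8 CPM with a median of 10.02 in the uninjured ones (3.25 ± 0.34, adjusted p = 8.33e-08). Among the injured values of Atf3 C2C was highest and C3B lowest, and all lay above the uninjured range. Fosl1 averaged 27.6 ± 14.6 CPM injured and 0.235 ± 0.466 CPM uninjured, and Maff, a small Maf protein that pairs with such factors, 67.9 ± 20.5 CPM injured and 10.4 ± 6.03 CPM uninjured (6.27 ± 0.68 and 2.68 ± 0.34 on the log2 scale).

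Fos did not pass, at 104 ± 33.1 CPM injured and 83.6 ± 34.6 CPM uninjured (log2 fold change 0.31 ± 0.40, adjusted p = 0.615). Jun was lower, at 267 ± 67.2 CPM injured and 440.5 ± 67.7 CPM uninjured (log2 fold change -0.72 ± 0.15, adjusted p = 0.00052), with 1 injured library inside the uninjured range.

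Among 24 tested genes of the Egr, Nr4a, Ier and SRF-linked group, 14 were higher (9 without the 6 shallower uninjured libraries) and 1 lower, with a median log2 fold change of 0.87. Klf6, a zinc finger factor induced in injured vessels, averaged 1306 ± 403 CPM injured and 545 ± 92.7 CPM uninjured (1.26 ± 0.17, adjusted p = 5.11e-06). Ier5 averaged 104 ± 18.02 CPM injured and 17.7 ± 16.8 CPM uninjured, and Zfp36l2, which destabilizes AU-rich transcripts, 79.5 ± 8.97 CPM injured and 52.95 ± 6.77 CPM uninjured (adjusted p = 3.19e-05 and 0.000139). Egr1, the best known member, had 1158, 664, 776, 547 and 852 CPM in the injured libraries and 344 to 948 CPM with a median of 643 in the uninjured ones, and did not pass (adjusted p = 0.34). Zfp36 did not pass either (492.7 ± 121 CPM injured and 467 ± 113 CPM uninjured, adjusted p = 0.846). The single lower member was Cyr61, a matricellular protein driven by YAP and SRF (604 ± 231 CPM injured and 1197 ± 603 CPM uninjured, adjusted p = 0.0376). Its call was lost with batch as a term (log2 fold change -0.76, adjusted p = 0.0747), with limma voom, with the 14 libraries fitted alone and with thinned counts. It was also lost without any of 8 of the 14 libraries, with log2 fold changes of -0.83 (without C2C) to -0.998 (without C3B).

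Of 45 other early transcription factors tested, 17 were higher and 6 lower. Bhlhe40, a repressor induced by hypoxia and stress, gave 686, 776, 542, 756 and 664 CPM in the injured libraries and 145 to 294 CPM with a median of 185 in the uninjured ones (log2 fold change 1.81 ± 0.18, adjusted p = 3.46e-08). Klf13 averaged 343 ± 46.96 CPM injured and 143 ± 27.5 CPM uninjured, and Ets1, an endothelial factor, 139.5 ± 55.6 CPM injured and 40.3 ± 14.9 CPM uninjured (1.26 ± 0.10 and 1.79 ± 0.24). Runx1, known for blood stem cells, lacked counts in all uninjured libraries and was at least 132-fold higher (against a floor of 3 counts over that group), with 11.8, 3.44, 2.50, 25.3 and 28.6 CPM in the injured libraries. Its highest injured values were in C2C and C3B. Myc, which drives growth genes, averaged 199 ± 81.99 CPM injured and 21.9 ± 23.8 CPM uninjured (log2 fold change 3.15 ± 0.54, adjusted p = 8.69e-05).

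The 6 lower factors were Twist1, Id2, Hey2, Snai2, Id3 and Bhlhe41, several of them factors of BMP and Notch signalling or of mesenchymal change. Twist1 gave 5.08, 7.50, 13.4, 4.21 and 0 CPM in the injured libraries and 62.4 to 234 CPM with a median of 156 in the uninjured ones (log2 fold change -4.59 ± 0.53, edgeR adjusted p = 4.29e-07). The injured range of Twist1 ended well under the uninjured one. Id2, an inhibitor of bHLH factors, averaged 26.5 ± 10.9 CPM injured and 83.6 ± 23.5 CPM uninjured, and Hey2, a Notch target that marks arteries, 125 ± 24.98 CPM injured and 297 ± 67.7 CPM uninjured (-1.65 ± 0.24 and -1.25 ± 0.19).

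Of the feedback inhibitors of receptor and MAP kinase signalling, 3 of 18 tested members were higher, 2 lower and 13 did not pass. Their shares, 16.7% higher and 11.1% lower, were near those over all genes. Those higher were Errfi1, Spry4 and Dusp5, and those lower Spry2 and Rasa1. Errfi1, which shuts off the EGF receptor, gave 445, 454, 543, 246 and 301 CPM in the injured libraries and 6.51 to 87.9 CPM with a median of 16.3 in the uninjured ones (log2 fold change 3.83 ± 0.43, adjusted p = 2.14e-07). Spry4 averaged 58.3 ± 29.4 CPM injured and 2.24 ± 5.23 CPM uninjured, and its log2 fold change of 4.58 ± 0.86 became 6.96 without uninjured library E1C. Dusp1, the phosphatase of p38 and JNK, was at 828 ± 268 CPM injured and 883 ± 312 CPM uninjured (adjusted p = 0.85).

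NF-kB is a family of factors held in the cytoplasm by inhibitors that its own activity restores. Of 22 tested members, 13 were higher in the injured 3 h flush and 9 did not pass, and the median log2 fold change was 1.33. The share higher was 59.1%, against 16.1% over all genes. Subunits (Nfkb1, Nfkb2, Rel, Rela), inhibitors (Nfkbia, Nfkbiz, Bcl3) and feedback regulators (Tnfaip3, Birc2, Birc3, Traf1) were among those higher. Nfkbia, the inhibitor IkB-alpha, gave 52.9, 75.9, 65.99, 105 and 77.4 CPM in the injured libraries and 12.1 to 36.1 CPM with a median of 22.9 in the uninjured ones (log2 fold change 1.53 ± 0.21, adjusted p = 3.52e-06). The ubiquitin-editing enzyme Tnfaip3, known as A20, gave 71.1, 109.7, 79.8, 67.8 and 59.5 CPM in the injured libraries and 8.99 to 36.1 CPM with a median of 17.4 in the uninjured ones. In neither gene did the groups overlap. Birc3, a ubiquitin ligase of TNF receptor signalling, averaged 98.1 ± 15.6 CPM injured and 35.02 ± 6.75 CPM uninjured, and the coactivator Bcl3 52.1 ± 12.6 CPM injured and 2.75 ± 2.63 CPM uninjured (4.19 ± 0.57 on the log2 scale, adjusted p = 4.39e-06).

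Promoters of genes that rose are shown to give the sequence next to the transcription start, with matches to the letters of a motif in capitals. They run from 250 bases before to 50 after the start and come from RefSeq on GRCm38.p6. Searched on both strands were GGNNTTTCC for NF-kB, TGANTCA for AP-1, TGACGTCA for CREB and ATF factors, TTCNNNGAA for STAT factors, and TGCACNC and TGCGCNC for the metal response element. TGANTCA and TTCNNNGAA read alike on both strands apart from the N, and no motif holds another. Of 52 genes that rose in the AP-1, NF-kB, SOCS, chemokine, adhesion and prostanoid lists, 40 had a promoter in the table. Of these, 21 had a match to one of the first 4 motifs at any of their starts. The 4 of them with the smallest p were Ppbp, Socs3, Maff and Tnfaip3, of which Ppbp, a platelet gene, is only named. Nfkbia, Mt1 and Mt2 were added after their values were seen.
Tnfaip3 (chr10:19015361-19015660, minus strand; NF-kB and AP-1 letters in capitals): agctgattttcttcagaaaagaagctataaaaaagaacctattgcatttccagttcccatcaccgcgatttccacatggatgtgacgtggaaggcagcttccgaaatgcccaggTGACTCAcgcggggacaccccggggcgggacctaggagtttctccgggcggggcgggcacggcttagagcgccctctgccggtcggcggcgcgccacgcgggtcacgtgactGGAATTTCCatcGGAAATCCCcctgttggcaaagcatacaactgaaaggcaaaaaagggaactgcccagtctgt
Nfkbia (chr12:55492598-55492897, minus strand; NF-kB letters in capitals): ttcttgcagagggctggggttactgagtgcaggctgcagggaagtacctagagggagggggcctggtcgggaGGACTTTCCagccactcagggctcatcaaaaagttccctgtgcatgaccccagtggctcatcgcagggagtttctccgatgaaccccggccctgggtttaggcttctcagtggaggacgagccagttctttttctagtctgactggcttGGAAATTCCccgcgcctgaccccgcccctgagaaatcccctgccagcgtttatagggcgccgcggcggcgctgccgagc
Socs3 (chr11:117969317-117969616, minus strand; STAT letters in capitals): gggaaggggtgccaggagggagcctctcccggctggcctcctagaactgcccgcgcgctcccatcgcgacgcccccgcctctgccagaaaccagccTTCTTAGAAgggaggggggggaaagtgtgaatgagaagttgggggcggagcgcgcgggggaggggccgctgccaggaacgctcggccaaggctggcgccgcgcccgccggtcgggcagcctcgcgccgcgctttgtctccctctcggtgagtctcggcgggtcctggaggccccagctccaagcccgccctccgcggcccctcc
Maff, the second of 3 starts (chr15:79347270-79347569, plus strand; CREB and STAT letters in capitals): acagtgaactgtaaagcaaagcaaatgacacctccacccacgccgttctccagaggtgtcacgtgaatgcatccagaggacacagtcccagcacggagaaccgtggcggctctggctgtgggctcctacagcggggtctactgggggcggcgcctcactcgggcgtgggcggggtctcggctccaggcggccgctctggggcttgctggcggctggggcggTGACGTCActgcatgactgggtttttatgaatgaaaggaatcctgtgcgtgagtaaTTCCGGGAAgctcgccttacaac
Mt1 (chr8:94178839-94179138, plus strand; metal response letters in capitals): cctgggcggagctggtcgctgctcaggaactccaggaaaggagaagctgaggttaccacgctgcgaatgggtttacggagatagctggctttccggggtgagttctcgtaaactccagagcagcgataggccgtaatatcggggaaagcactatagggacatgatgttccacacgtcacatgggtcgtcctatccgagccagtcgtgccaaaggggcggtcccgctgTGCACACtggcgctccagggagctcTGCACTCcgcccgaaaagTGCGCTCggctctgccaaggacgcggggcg
Mt2 (chr8:94172368-94172667, plus strand; metal response letters in capitals): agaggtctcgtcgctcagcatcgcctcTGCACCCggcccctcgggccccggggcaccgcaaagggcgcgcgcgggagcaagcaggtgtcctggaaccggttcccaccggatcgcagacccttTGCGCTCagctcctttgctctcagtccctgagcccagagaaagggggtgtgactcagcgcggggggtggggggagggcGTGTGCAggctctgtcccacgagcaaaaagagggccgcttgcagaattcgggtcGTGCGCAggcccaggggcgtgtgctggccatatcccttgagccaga

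Tnfaip3 and Nfkbia each held 2 NF-kB matches in these windows, and Tnfaip3 also 1 for AP-1. Mt2 also held 1 AP-1 match and Nfkbia 1 to the metal response letters, left in lower case. Starts without a window above were the second of Tnfaip3 and the first of Maff, both without a match to any motif. The third start of Maff, not shown either, held 1 NF-kB match and 2 to the metal response letters. The shares that follow take each motif alone and only the first listed start of a gene. They are no background for the 21 of 40 genes above, which counted any start and any of the first 4 motifs. The matching share over all promoters was not computed. NF-kB letters stood in 5.72% of 27025 promoters, in 5.95% of the 10650 promoters of tested genes and in 8.02% of the 935 promoters of genes at least 2-fold higher. AP-1 letters stood in 7.93%, 6.03% and 8.45% of the same sets, STAT letters in 8.47%, 7.47% and 7.17%, and CREB letters in 1.88%, 2.89% and 2.03%. Mt1 held 3 and Mt2 4 matches to the metal response letters, which 25.6% of all promoters hold at least once, 33.5% of those of tested genes and 32.2% of those at least 2-fold higher. A match describes letters only.

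Cytokines of the interleukin-6 family act through the receptor chain gp130 and STAT3, and SOCS proteins end the signal. Here 14 of 24 tested members were higher and 10 did not pass, with a median log2 fold change of 1.04. Socs3, whose promoter is among those shown, gave 95.6, 98.4, 74.4, 33.7 and 143 CPM in the injured libraries and 0 to 2.92 CPM with a median of 0.562 in the uninjured ones (log2 fold change 6.22 ± 0.58, edgeR adjusted p = 1.37e-08). Every injured library lay far above the highest uninjured value. Stat3 itself averaged 399 ± 42.8 CPM injured and 193 ± 27.4 CPM uninjured, the interleukin-6 receptor Il6ra 34.9 ± 19.8 CPM injured and 0.828 ± 1.38 CPM uninjured, and Socs5 84.8 ± 31.6 CPM injured and 26.1 ± 7.62 CPM uninjured (log2 fold changes 1.05 ± 0.10, 5.08 ± 0.63 and 1.69 ± 0.21).

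Chemokines call leukocytes to a site. Of 20 tested members, 10 were higher in the injured 3 h flush (4 without the 6 shallower uninjured libraries, 6 with the 14 libraries fitted alone) and 10 did not pass. The members with the smallest p were Ppbp and Pf4, which platelets carry. Ppbp gave 615, 531, 695, 377 and 820.5 CPM in the injured libraries and 0 to 20.02 CPM with a median of 2.30 in the uninjured ones, and Pf4 lacked counts in all uninjured libraries and was at least 108-fold higher. Platelet markers were higher in the same libraries, as given below, and their part in these values was not tested. Ccl2, which attracts monocytes, gave 22, 4.06, 11.9, 1.53 and 15.4 CPM in the injured libraries and counts in 1 uninjured library, with a pooled ratio of 147 (95% interval 40.02 to 1222). Cxcl12 did not pass (90.2 ± 31.3 CPM injured and 134 ± 54.5 CPM uninjured, adjusted p = 0.193), but within batch 2 it was lower (-1.70, adjusted p = 0.0258).

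Adhesion molecules capture rolling leukocytes. Of 13 tested members 5 were higher in the injured flush (3 with the 14 libraries fitted alone), among them Selp, Vcam1 and Icam1. Selp, P-selectin, which endothelial cells and platelets store, gave 1993, 1353, 886, 675 and 1328 CPM in the injured libraries and 474 to 645 CPM with a median of 609 in the uninjured ones (log2 fold change 1.10 ± 0.22, adjusted p = 0.00039). Vcam1 gave 4324, 3538, 3282, 1412 and 3165 CPM in the injured libraries and 1609 to 2580 CPM with a median of 1943 in the uninjured ones, so that C2C lay below the whole uninjured range and the other 4 above it (0.66 ± 0.19, adjusted p = 0.00987). Without C1A the Vcam1 difference was 0.52 (adjusted p = 0.0549). Sele, E-selectin, did not pass, at 34.2 ± 21.9 CPM injured and 43.6 ± 24.4 CPM uninjured (adjusted p = 0.637).

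Prostanoids are lipid mediators made from arachidonic acid. Among 16 tested genes 4 were higher (2 without the 6 shallower uninjured libraries, 2 with the 14 libraries fitted alone), the synthases Ptgs2, Ptgis and Ptges2 and the prostacyclin receptor Ptgir, and 1 was lower. Ptgs2, the inducible cyclooxygenase, gave 939, 491, 368, 151 and 548 CPM in the injured libraries and 3.16 to 47.8 CPM with a median of 17.5 in the uninjured ones (4.54 ± 0.51, adjusted p = 2.61e-07). Ptgis, prostacyclin synthase, averaged 273 ± 52.6 CPM injured and 160.4 ± 29.98 CPM uninjured. The receptor Ptger4 was the lower one, at 73.5 ± 24.2 CPM injured and 126 ± 17.04 CPM uninjured (-0.77 ± 0.16, adjusted p = 0.000656).

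Receptors for cytokines changed more often upward: in the interleukin list 12 of 24 tested members were higher, 2 lower and 10 did not pass. Csf2rb, the beta chain for interleukin-3 and GM-CSF, averaged 97.4 ± 70.2 CPM injured and 0.747 ± 1.48 CPM uninjured, and its near-identical neighbour makes its count uncertain. Ifngr2, a chain of the interferon-gamma receptor, averaged 35.5 ± 7.21 CPM injured and 9.52 ± 6.55 CPM uninjured. The cytokine Il15 was lower, at 17.4 ± 4.35 CPM injured and 46.5 ± 8.27 CPM uninjured (-1.42 ± 0.21, adjusted p = 1.55e-05). In the fit without C2C and C3B, 7 members of this list were higher and 3 lower.

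In the TNF list 8 of 17 tested members were higher, all of them receptors. Tnfrsf21 averaged 88.7 ± 34.8 CPM injured and 7.36 ± 4.45 CPM uninjured, Tnfrsf1b, the second TNF receptor, 109 ± 12.8 CPM injured and 47.4 ± 8.30 CPM uninjured, Tnfrsf1a 149 ± 41.3 CPM injured and 87.03 ± 14.2 CPM uninjured and Tnfrsf11a, the receptor RANK, 49.6 ± 35.5 CPM injured and 4.26 ± 7.01 CPM uninjured (log2 fold changes 3.56 ± 0.37, 1.20 ± 0.18, 0.78 ± 0.14 and 3.69 ± 0.66). The ligand Tnfsf10, TRAIL, was the 1 lower member, at 57.1, 113, 111, 147 and 75.9 CPM in the injured libraries and 201 to 398 CPM with a median of 304 in the uninjured ones (-1.59 ± 0.20, adjusted p = 1.54e-06).

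Growth factor genes went both ways: of 38 tested, 8 were higher (5 without the 6 shallower uninjured libraries, 4 with the 14 libraries fitted alone) and 8 lower (3 without C2C and C3B). Hbegf, a membrane-bound ligand of the EGF receptor, gave 151, 109, 115, 56.7 and 85.5 CPM in the injured libraries and 0.452 to 10.6 CPM with a median of 4.17 in the uninjured ones (log2 fold change 4.33 ± 0.49, adjusted p = 3.22e-07). Its relative Tgfa averaged 218 ± 72.1 CPM injured and 96.4 ± 19.7 CPM uninjured and Tgfb1 57.7 ± 17.3 CPM injured and 14.2 ± 11.99 CPM uninjured. On the lower side, Vegfa averaged 59.04 ± 25.1 CPM injured and 149 ± 42.2 CPM uninjured, and Inhba, an activin subunit, 22.6 ± 8.99 CPM injured and 80.8 ± 24.2 CPM uninjured (-1.33 ± 0.26 and -1.83 ± 0.26, adjusted p = 0.000297 and 7.96e-06). Hbegf and the feedback inhibitor Errfi1 act on one receptor, and both rose. Bmp4, Bmp6, Hgf, Nrg1, Tgfb2 and Esm1 were the other lower members.

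**Figure D2:**
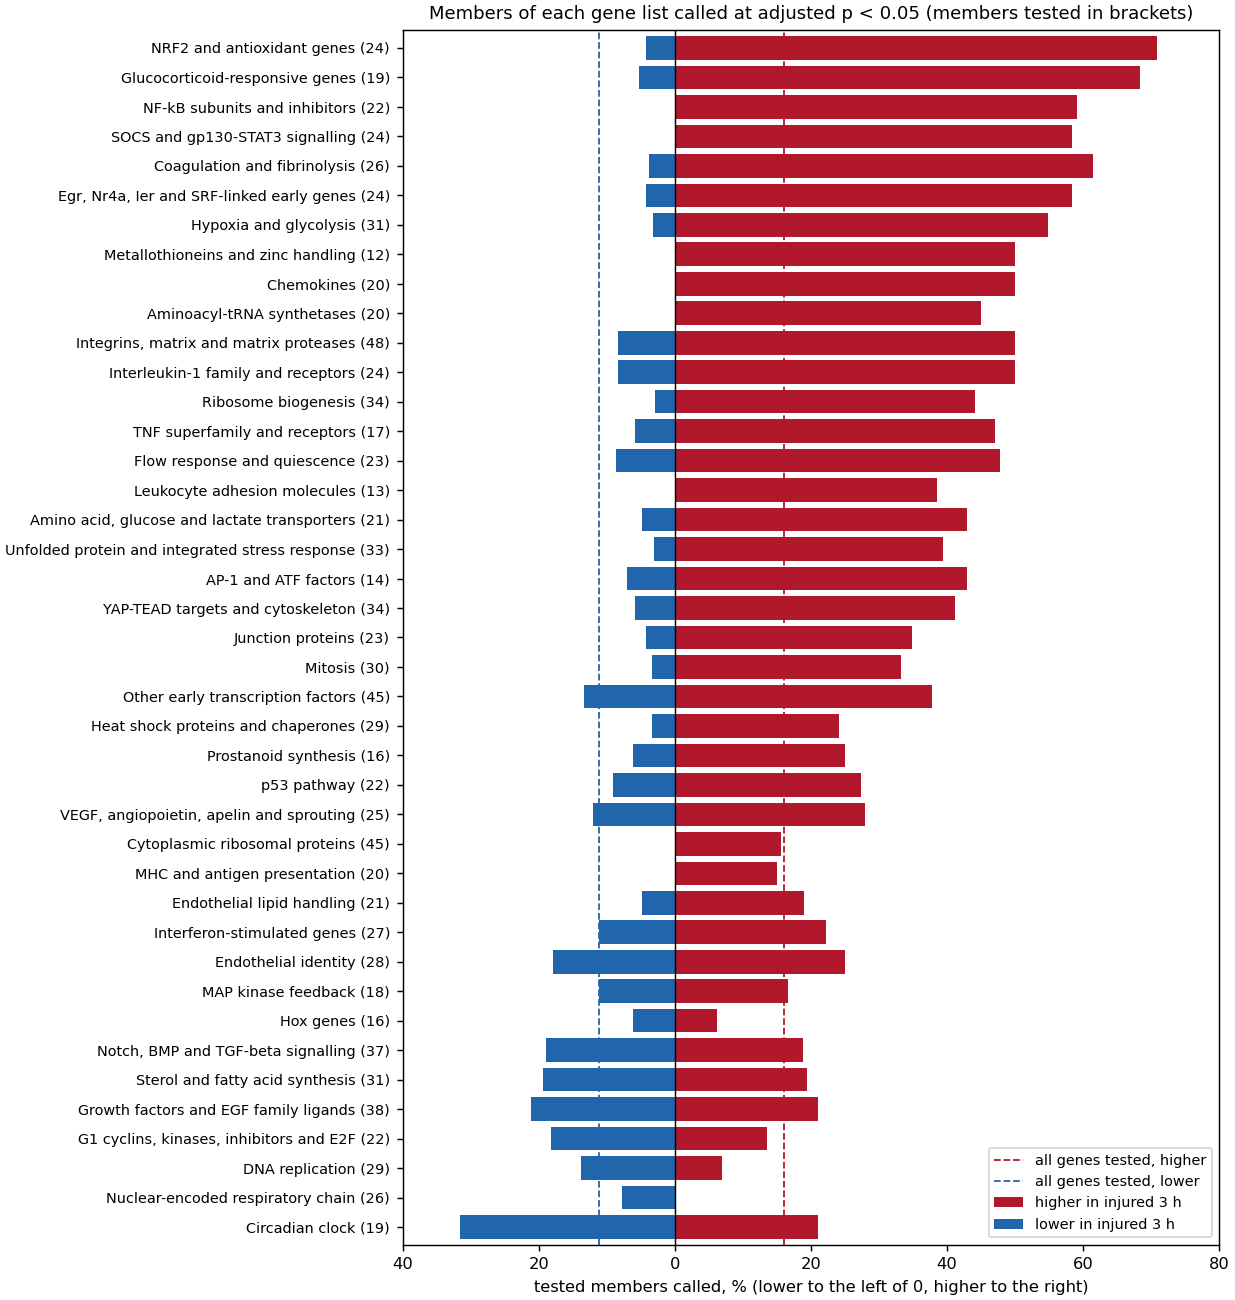
Share of the tested members of 41 gene lists called higher (right, red) or lower (left, blue) in the injured 3 h flush at an adjusted p under 0.05, with dashed lines at the shares over all 13884 genes (16.1% and 11.1%). NRF2, glucocorticoid-responsive and NF-kB lists lie near the top, and the circadian clock list at the bottom.

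Genes that glucocorticoids are known to induce formed a list of 19 tested members, of which 13 were higher and 1 lower, with a median log2 fold change of 2.19. Against the injured flush taken at 48 h, 12 of the 19 were higher, beside 8.59% of all genes in that comparison. Fkbp5, a chaperone that restrains the glucocorticoid receptor, gave 217, 214, 229.5, 91.1 and 235 CPM in the injured libraries and 0 to 21.6 CPM with a median of 0 in the uninjured ones (log2 fold change 4.92 ± 0.62, edgeR adjusted p = 1.29e-06). The list shares Mt1, Mt2, Errfi1 and Cdkn1a with groups described above. Zbtb16, a zinc finger factor, averaged 105 ± 32.3 CPM injured and 19.9 ± 15.2 CPM uninjured (2.37 ± 0.54). Sgk1, a kinase, was the lower member (236 ± 49.5 CPM injured and 348 ± 94.05 CPM uninjured, adjusted p = 0.0286), and lost its call without any of 5 of the 14 libraries, with values of -0.47 (without C1B) to -0.55 (without C1A).

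NRF2 turns on enzymes against oxidative stress. Here 17 of 24 tested members were higher, 1 lower and 6 did not pass, with a median log2 fold change of 0.71. Both subunits of the enzyme that limits glutathione synthesis were higher: Gclc gave 119.7, 101, 93.2, 142 and 124 CPM in the injured libraries and 42.8 to 61.5 CPM with a median of 53.97 in the uninjured ones, and Gclm 121, 126, 131, 156 and 164 CPM in the injured libraries and 65.99 to 91.8 CPM with a median of 81.8 in the uninjured ones. The 2 groups were apart for both. The autophagy receptor Sqstm1 averaged 113 ± 17.1 CPM injured and 54.7 ± 9.81 CPM uninjured and Nfe2l2, NRF2 itself, 699 ± 100.5 CPM injured and 384 ± 32.5 CPM uninjured (1.04 ± 0.12 and 0.86 ± 0.11).

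Among 12 tested genes of zinc handling beside and including the metallothioneins, 6 were higher. The importers Slc39a1 (46.8 ± 9.34 CPM injured and 27.5 ± 3.98 CPM uninjured) and Slc39a14 (81.3 ± 22.4 CPM injured and 26.1 ± 14.8 CPM uninjured) rose, with log2 fold changes of 0.76 ± 0.14 and 1.62 ± 0.37. Slc39a6 and the transporter Slc30a4 were the other members called.

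Hypoxia and glycolysis genes had 17 of 31 tested members higher (9 without C2C and C3B, 8 without the 6 shallower uninjured libraries, 10 with the 14 libraries fitted alone) and 1, Vegfa, lower. Ndrg1, a stress gene of hypoxia, gave 559, 596, 437, 503 and 539 CPM in the injured libraries and 185 to 249.9 CPM with a median of 228 in the uninjured ones (1.25 ± 0.10, adjusted p = 2.26e-09). Pfkfb3, which sets the rate of glycolysis in endothelial cells, averaged 360.5 ± 49.2 CPM injured and 196 ± 49.8 CPM uninjured. The glucose transporter Slc2a3 lacked counts in all uninjured libraries and was at least 339.7-fold higher, with 0.846, 16.2, 9.70, 13.02 and 117 CPM in the injured libraries. Most of it lay in C3B, the library with the highest neutrophil sum.

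Cells respond to misfolded protein through Ern1, Xbp1 and Atf4. Of 33 tested members, 13 were higher in the injured 3 h flush, 1 lower (Vldlr) and 19 did not pass, and with the 14 libraries fitted alone 7 were higher. Xbp1 averaged 214 ± 50.5 CPM in the injured 3 h flush and 99.3 ± 15.9 CPM in the uninjured flush. Atf4 averaged 176 ± 67.5 CPM injured and 66.4 ± 12.3 CPM uninjured, the sensor Ern1 221 ± 48.05 CPM injured and 112 ± 13.3 CPM uninjured, and the chaperone Hspa5 837 ± 112 CPM injured and 518 ± 74.9 CPM uninjured (log2 fold changes 1.10 ± 0.12, 1.41 ± 0.18, 0.98 ± 0.13 and 0.69 ± 0.12 for Xbp1, Atf4, Ern1 and Hspa5). All 5 injured libraries lay above all uninjured ones for these 4 genes.

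Heat shock genes had 7 of 29 tested members higher and 1 lower (Hsf2). Hsp90aa1 averaged 61.4 ± 4.52 CPM injured and 30.4 ± 9.25 CPM uninjured, the cochaperone Bag3 60.9 ± 17.5 CPM injured and 35.5 ± 8.27 CPM uninjured, and Dnajb9, a cochaperone of the endoplasmic reticulum, 65.7 ± 16.1 CPM injured and 30.7 ± 10.6 CPM uninjured (1.01 ± 0.17, 0.77 ± 0.17 and 1.09 ± 0.21). In the p53 list 6 of 22 were higher, Cdkn1a among them, and 2 lower. Mdm2, the ubiquitin ligase of p53, averaged 152 ± 15.8 CPM injured and 99.4 ± 10.2 CPM uninjured and Trp53inp1 65.4 ± 23.2 CPM injured and 28.7 ± 6.95 CPM uninjured. Plk2, a p53-induced kinase, was lower, at 10.2, 15, 18.1, 27.2 and 18.2 CPM in the injured libraries and 42.7 to 162 CPM with a median of 87.7 in the uninjured ones (-2.50 ± 0.30, adjusted p = 8.04e-07).

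The circadian clock list held the largest share of lower members among 41 lists of response, biosynthesis, proliferation, endothelial and segment genes, 31.6%: of 19 tested 4 were higher (2 without the 6 shallower uninjured libraries, 2 with the 14 libraries fitted alone) and 6 lower. Hlf, an output factor of the clock, averaged 31.7 ± 23.4 CPM injured and 139 ± 46.9 CPM uninjured. Tef, another such factor, averaged 206 ± 37.4 CPM injured and 388 ± 101 CPM uninjured. Rora averaged 196 ± 21.4 CPM injured and 320.2 ± 35.2 CPM uninjured, Bhlhe41 2.02 ± 2.81 CPM injured and 31.2 ± 17.8 CPM uninjured, and Nr1d2 and Cry2 were the other lower members (log2 fold changes -2.13 ± 0.35, -0.92 ± 0.21, -0.71 ± 0.10 and -3.99 ± 0.87 for the 4 genes with values). Nfil3, a repressor that opposes them, was higher, at 12.7, 11.6, 13.1, 10.7 and 28.1 CPM in the injured libraries and 0 to 2.35 CPM with a median of 0 in the uninjured ones. The labels do not give the hour of day at collection, and its part was not tested.

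Genes for making ribosomes and charging tRNAs were higher in part. Of 34 tested ribosome biogenesis genes 15 were higher (9 without C2C and C3B, 8 without the 6 shallower uninjured libraries, 8 with the 14 libraries fitted alone) and 1 lower, and of 20 aminoacyl-tRNA synthetases 9 were higher (4 without the 6 shallower uninjured libraries, 4 with the 14 libraries fitted alone). Ddx21, a nucleolar helicase, averaged 66.2 ± 12.1 CPM injured and 31.6 ± 7.04 CPM uninjured, Gnl3 44.98 ± 15.4 CPM injured and 20.8 ± 4.90 CPM uninjured and Wdr43 78.2 ± 15.9 CPM injured and 43 ± 8.95 CPM uninjured. Among the synthetases, Gars averaged 107 ± 13.4 CPM injured and 58.4 ± 8.91 CPM uninjured, Nars 144 ± 41.2 CPM injured and 84.8 ± 10.7 CPM uninjured and Wars 50.1 ± 8.33 CPM injured and 25.8 ± 6.94 CPM uninjured (log2 fold changes 0.87 ± 0.14, 0.76 ± 0.13 and 0.95 ± 0.20). Slc7a5, an importer of large neutral amino acids, had no count in the uninjured flush and was at least 171-fold higher, and Slc7a1, an arginine importer, averaged 244 ± 21.8 CPM injured and 149 ± 33.6 CPM uninjured.

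Cytoplasmic ribosomal proteins had 7 of 45 tested members higher (1 without C2C and C3B, none without the 6 shallower uninjured libraries, 2 with the 14 libraries fitted alone), a share of 15.6%, near the 16.1% of all genes. In the respiratory chain list 2 of 26 were lower and 24 did not pass, one of the 2 being the coactivator Ppargc1a (6.17 ± 3.49 CPM injured and 46.1 ± 30.7 CPM uninjured, -2.92 ± 0.61). Sterol and fatty acid genes had 6 of 31 higher (3 without C2C and C3B, 2 with the 14 libraries fitted alone, 2 with RLE size factors, 3 with batch as a term) and 6 lower. The desaturase Scd2 was lower at 98.8 ± 33.7 CPM injured and 251 ± 15.1 CPM uninjured, and the cholesterol exporter Abca1 at 68.97 ± 26.7 CPM injured and 206 ± 38.4 CPM uninjured (-1.35 ± 0.18 and -1.58 ± 0.29).

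Most genes of DNA replication and mitosis did not pass against the uninjured flush at 3 h, and most were lower than at 48 h. Mki67, a marker of dividing cells, gave 13.1, 30.3, 36.3, 65.8 and 26.1 CPM in the injured 3 h libraries and 16.5 to 61.8 CPM with a median of 37.9 in the uninjured ones, and the 2 ranges overlapped (log2 fold change -0.12 ± 0.32, adjusted p = 0.826). Within batch 1 it was lower (-1.42, adjusted p = 0.0434). In the injured flush at 48 h it averaged 457 ± 102 CPM (n = 9), and the difference of the 3 h flush from it was -3.74 ± 0.36 on the log2 scale (SE, adjusted p = 5.43e-08). Of 29 tested DNA replication genes 2 were higher (1 with the 14 libraries fitted alone) and 4 lower (1 without C2C and C3B, none with the 14 libraries fitted alone) at 3 h than in the uninjured flush, and 24 were lower at 3 h than at 48 h, beside 9.70% of all genes. Of 30 mitosis genes 10 were higher and 1 lower than in the uninjured flush, a share higher of 33.3% against 16.1% over all genes, with a median log2 fold change of 1.04 (1.07 with genes absent from one group set at their bound), and 27 were lower than at 48 h. Ndc80, Ube2c, Cenpf and Cdc20 were among those higher, at low levels. Ndc80, of the kinetochore, averaged 2.17 ± 3.15 CPM injured and 0.0517 ± 0.155 CPM uninjured, and the ubiquitin-conjugating enzyme Ube2c 3.56 ± 4.88 CPM injured and 0.029 ± 0.0869 CPM uninjured (adjusted p = 0.000108 and 0.000293). Cenpf gave 12.7, 0, 6.25, 6.12 and 0 CPM and Cdc20, an activator of the anaphase-promoting complex, 1.27, 0.312, 0.938, 0 and 0 CPM in the injured libraries, and both lacked counts in all uninjured ones. Ndc80 had counts in 4 of the 5 injured libraries, Cenpf and Cdc20 in 3 and Ube2c in 2, and all 4 genes were lower than at 48 h. In the fit without C2C and C3B 4 mitosis genes were higher than in the uninjured flush, with Ube2c at -1.51 (adjusted p = 0.663), and 8 were higher without the 6 shallower uninjured libraries and 8 with batch as a term. With only the 14 libraries in the fit 11 mitosis genes passed the filter on low counts, and these 11 did not pass the test. Rfc5, a subunit of the clamp loader, was the replication gene with the smallest p (48.6 ± 12.4 CPM injured and 12.9 ± 4.50 CPM uninjured, 1.89 ± 0.23). The G1 cyclin Ccnd1 averaged 179.6 ± 90.5 CPM injured and 122 ± 30.7 CPM uninjured and did not pass (adjusted p = 0.204), against 743 ± 295 CPM at 48 h. With C2C and C3B left out its log2 fold change over the uninjured flush was 0.97 (adjusted p = 0.0438). Ccnd2 did not pass (602 ± 40.1 CPM injured and 521 ± 41.5 CPM uninjured).

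Over all genes, 1192 (8.59%) were higher and 1347 (9.70%) lower in the injured flush at 3 h than at 48 h. Both groups are abdominal, so the segment is the same, but the mice differ. The 2 contrasts share the 5 libraries of 3 h, so they are not independent. The uninjured flushes and the 48 h injured flushes also carry the same mouse labels. One 48 h library, E2A, stood apart in mitochondrial share (13.42%, against a median of 3.88%), fibroblast sum (10840 CPM, against 915.5) and macrophage sum (5885 CPM, against 1237). Without it 1291 genes were higher and 1435 lower. Mt2, Socs3, Fkbp5, Atf3, Adamts1 and Ptgs2, given next, kept their direction and their side of the threshold. Gria3, given further below, went from a log2 fold change of -0.039 to 0.003 and passed in neither fit. Mt2 averaged 769.6 ± 323 CPM at 3 h and 13.7 ± 7.43 CPM at 48 h, Socs3 89.1 ± 39.8 CPM at 3 h and 9.71 ± 4.18 CPM at 48 h, and Fkbp5 198 ± 60.1 CPM at 3 h and 22.8 ± 9.83 CPM at 48 h. Atf3 averaged 93.8 ± 57.9 CPM at 3 h and 25.3 ± 9.78 CPM at 48 h, Adamts1 1872 ± 457 CPM at 3 h and 357 ± 116 CPM at 48 h, and Ptgs2 499 ± 289 CPM at 3 h and 215 ± 119 CPM at 48 h. The 3 h flush was higher than the 48 h flush by log2 fold changes of 5.83 ± 0.44, 3.20 ± 0.49, 3.13 ± 0.56, 1.88 ± 0.32 and 2.39 ± 0.26 for Mt2, Socs3, Fkbp5, Atf3 and Adamts1 (adjusted p = 9.96e-10, 4.11e-05, 0.000252, 0.000155 and 2.9e-07). The difference of Ptgs2, 1.21 ± 0.46, did not pass (adjusted p = 0.0692). Il17ra, Il6ra, Pf4, Fosl1, Hbegf and Myc, described above as higher than in the uninjured flush, did not pass against 48 h either. Of the 2230 genes higher than in the uninjured flush, 684 were also higher than at 48 h and 90 were lower. Of the 1535 lower than in the uninjured flush, 383 were also lower than at 48 h and 38 were higher. Among genes given as lower than in the uninjured flush, Nrp1, Tfpi, Hey2, Inhba, Jun and Ptger4 did not pass against 48 h. Efnb2, Twist1, Id2, Il15, Tnfsf10 and Plk2 were lower at 3 h than at 48 h, and Vegfa was higher.

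Genes that define endothelial cells did not move as a block. Of 28 tested, 7 were higher (2 without the 6 shallower uninjured libraries) and 5 lower. Flt1, a VEGF receptor that traps ligand, gave 382, 308, 219, 176 and 306 CPM in the injured libraries and 1.35 to 116 CPM with a median of 40.7 in the uninjured ones (log2 fold change 2.57 ± 0.40, adjusted p = 2.23e-05). Cdh5, the cadherin of endothelial junctions, averaged 1828 ± 93.02 CPM injured and 1096 ± 77.6 CPM uninjured, and the tight junction protein Cldn5 76.7 ± 11.1 CPM injured and 33.9 ± 10.02 CPM uninjured (0.74 ± 0.12 and 1.17 ± 0.24). The call of Cldn5 was lost without the 6 shallower uninjured libraries (0.94, adjusted p = 0.0749). Pecam1 (6836 ± 381 CPM injured and 5919 ± 725 CPM uninjured) and Vwf (4472 ± 704 CPM injured and 3589 ± 439 CPM uninjured) did not pass (adjusted p = 0.223 and 0.0676), though Vwf passed without C1A (0.39, adjusted p = 0.0366).

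On the lower side, Emcn, a mucin of the endothelial surface, gave 113, 112, 84.4, 46.3 and 91.6 CPM in the injured libraries and 132 to 432 CPM with a median of 242 in the uninjured ones (-1.54 ± 0.28, edgeR adjusted p = 0.000181). Eng, a coreceptor for BMP9, averaged 212 ± 43.8 CPM injured and 403 ± 86.8 CPM uninjured, Clec14a 386 ± 120.4 CPM injured and 693 ± 84.5 CPM uninjured, and Egfl7 168 ± 24.96 CPM injured and 281 ± 44.4 CPM uninjured (-0.93 ± 0.14, -0.84 ± 0.18 and -0.74 ± 0.13). Gata2 was the other lower member. Levels of Flt1 and Emcn differed in opposite directions between the same 2 groups of libraries.

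Genes of flow response and quiescence had 11 of 23 tested members higher and 2 lower. S1pr1, the sphingosine receptor that seals endothelial junctions, gave 1322, 914, 860, 1103 and 1126 CPM in the injured libraries and 221 to 386 CPM with a median of 302 in the uninjured ones. Thrombomodulin, Thbd, which turns thrombin to an anticoagulant role, gave 2675, 2305, 2455, 1725 and 2125 CPM in the injured libraries and 782 to 1557 CPM with a median of 1063 in the uninjured ones. Neither gene's groups overlapped. Mef2d averaged 249.9 ± 36.7 CPM injured and 144 ± 28.5 CPM uninjured (0.79 ± 0.12). Klf2 and Klf4, the main factors induced by flow, did not pass. Klf2 averaged 339.7 ± 127 CPM injured and 414 ± 158 CPM uninjured (adjusted p = 0.615). Klf4 averaged 349.5 ± 110.5 CPM injured and 218 ± 108 CPM uninjured (adjusted p = 0.105), though it passed without E1C (0.82, adjusted p = 0.0394). Edn1, the vasoconstrictor endothelin-1, was lower, at 265, 283, 509, 231 and 194 CPM in the injured libraries and 132 to 1314 CPM with a median of 795 in the uninjured ones (-1.28 ± 0.42, adjusted p = 0.0254). All injured values lay inside the uninjured range, the call was lost without C1A, C1B, C2C or C3B (-1.16 to -1.26), and within batch 1 the difference was 0.31 in the other direction (adjusted p = 0.594).

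Sprouting genes went both ways. Itga5, the fibronectin receptor chain, averaged 1186 ± 259 CPM injured and 403 ± 37.4 CPM uninjured and Plaur, the urokinase receptor, 40.5 ± 8.99 CPM injured and 2.62 ± 2.35 CPM uninjured, whereas Nrp1 and Calcrl were lower. Nrp1, a VEGF and semaphorin coreceptor, gave 264, 387, 584, 492 and 335 CPM in the injured libraries and 946 to 1720 CPM with a median of 1375 in the uninjured ones (log2 fold change -1.75 ± 0.17, adjusted p = 4.19e-08). Calcrl, the receptor for adrenomedullin and CGRP, gave 216, 246, 159.8, 315 and 286 CPM in the injured libraries and 605 to 1256 CPM with a median of 762 in the uninjured ones (-1.77 ± 0.20, adjusted p = 2.66e-07). Efnb2, the ephrin that marks arteries, gave 406, 404, 590.4, 435 and 418 CPM in the injured libraries and 962 to 2011 CPM with a median of 1781 in the uninjured ones (-1.83 ± 0.17, adjusted p = 1.73e-08). For these 3 genes every injured library lay below every uninjured one. In the injured flush at 48 h, Nrp1 averaged 543 ± 79.7 CPM and did not pass against 3 h (edgeR adjusted p = 0.0955). Efnb2 averaged 767 ± 125 CPM there and was lower at 3 h (adjusted p = 0.00162). Both were lower at 48 h than in the uninjured flush too (-1.35 for Nrp1 and -1.07 for Efnb2, adjusted p = 5.6e-08 and 1.36e-06). In the sprouting list as a whole 7 of 25 were higher (4 without the 6 shallower uninjured libraries) and 3 lower, and in the Notch, BMP and TGF-beta list 7 of 37 higher (4 without the 6 shallower uninjured libraries) and 7 lower. In the last of these lists the corepressor Ski averaged 879 ± 84.5 CPM injured and 585 ± 58.98 CPM uninjured and Smad3 134 ± 31.8 CPM injured and 73.1 ± 10.1 CPM uninjured, both higher, and Notch1 did not pass (435 ± 46.03 CPM injured and 335 ± 45.4 CPM uninjured, adjusted p = 0.0991), though it passed with the 14 libraries fitted alone (0.34, adjusted p = 0.02) and with counts thinned to the smallest total (0.31, adjusted p = 0.0335).

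**Figure D3:**
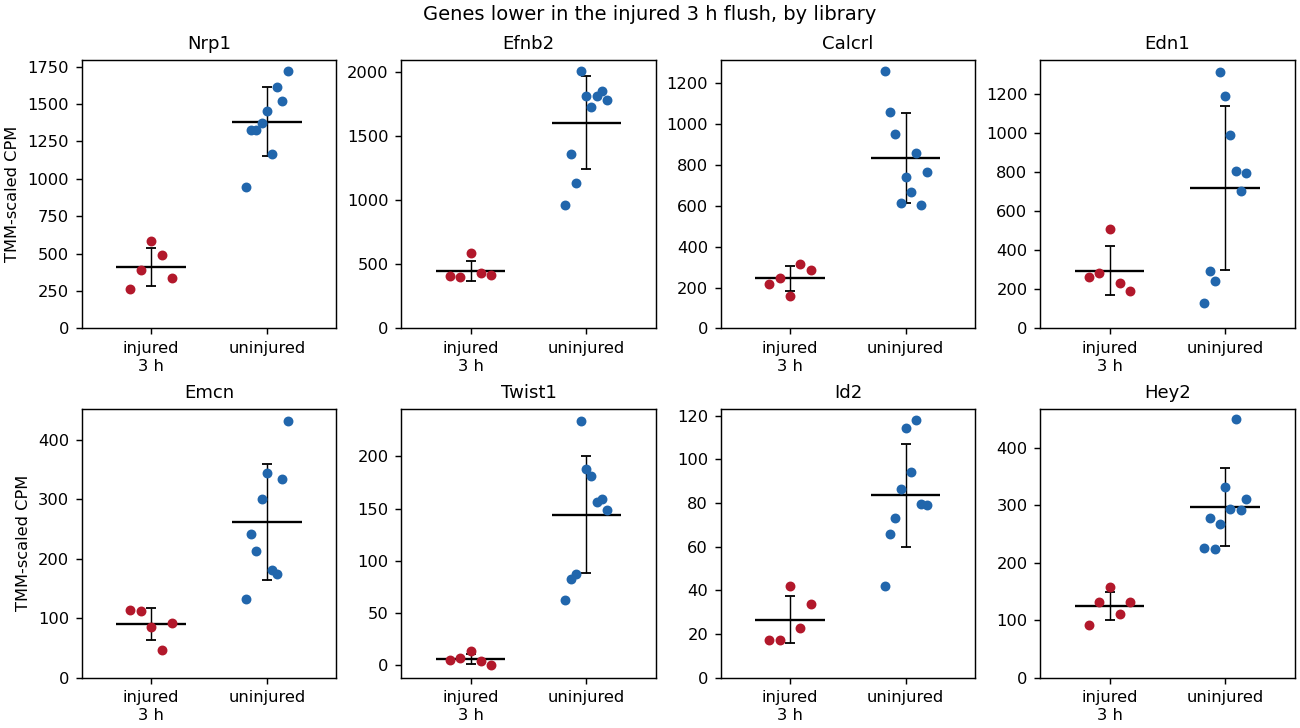
TMM-scaled CPM of 8 genes in each library, with the 5 injured 3 h libraries at left and the 9 uninjured ones at right in each panel; lines are means and bars are SDs. All injured libraries lie below all uninjured ones for each gene but Edn1, whose injured values lie within the uninjured range.

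Coagulation and fibrinolysis genes had 16 of 26 tested members higher and 1 lower, with a median log2 fold change of 1.07. Nt5e, the ecto-enzyme that makes adenosine, gave 379, 399.9, 388, 309 and 430.4 CPM in the injured libraries and 110.2 to 175 CPM with a median of 139 in the uninjured ones, and S100a10, which gathers plasminogen at the cell surface, 205, 159.7, 146, 130.5 and 185 CPM in the injured libraries and 23.3 to 75.6 CPM with a median of 41.1 in the uninjured ones. Serpine2, a thrombin inhibitor, lacked counts in all uninjured libraries and was at least 113-fold higher. It averaged 12.9 ± 3.07 CPM in the injured 3 h flush and 586 ± 99.8 CPM in the flushed vessel wall (n = 3). Tfpi, the inhibitor of the tissue factor pathway, was the lower member, at 24.96, 34.7, 39.4, 32.5 and 15.4 CPM in the injured libraries and 75.8 to 127 CPM with a median of 93.9 in the uninjured ones (log2 fold change -1.74 ± 0.16, adjusted p = 1.58e-08).

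In the integrin and matrix list 24 of 48 tested members were higher and 4 lower (1 without C2C and C3B, 1 without the 6 shallower uninjured libraries). Adamts1, a protease that cuts versican, gave 2475, 1879, 1240, 1696 and 2070 CPM in the injured libraries and 226 to 801 CPM with a median of 326 in the uninjured ones (2.25 ± 0.26, adjusted p = 3.61e-07). Itgb3, a chain of the vitronectin and fibrinogen receptors that endothelial cells and platelets carry, averaged 298 ± 80.02 CPM injured and 45.7 ± 20.99 CPM uninjured. Mgp, the matrix Gla protein that blocks calcification, averaged 6042 ± 698 CPM injured and 2005 ± 792 CPM uninjured, and Sparcl1 62.2 ± 14.1 CPM injured and 1.31 ± 2.27 CPM uninjured. The gelatinase Mmp2 was lower, at 83.7 ± 31.8 CPM injured and 179 ± 34.4 CPM uninjured (-1.10 ± 0.18). Mgp and Sparcl1 are also genes of the vessel wall, where they averaged 2204 ± 465 and 423 ± 41.03 CPM.

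YAP-linked and cytoskeletal genes had 14 of 34 tested members higher and 2 lower (Amotl2, and Cyr61 with the limits given above), 1 of them with batch as a term. Tubb6, a tubulin, averaged 40.8 ± 24.96 CPM injured and 1.05 ± 1.43 CPM uninjured and the DNA-binding partner of YAP Tead4 70.7 ± 10.5 CPM injured and 3.35 ± 5.35 CPM uninjured (4.77 ± 0.47 and 4.41 ± 0.68). Of 23 junction genes 8 were higher (4 without the 6 shallower uninjured libraries) and 1 lower, with Ctnna1, alpha-catenin, at 616 ± 104 CPM injured and 458 ± 46.7 CPM uninjured. Interferon-stimulated genes had 6 of 27 higher (3 with the 14 libraries fitted alone) and 3 lower (1 without C2C and C3B, none without the 6 shallower uninjured libraries), and antigen presentation genes 3 of 20 higher (7 without the 6 shallower uninjured libraries, 5 with batch as a term). Of the antigen presentation genes, B2m averaged 5127 ± 565 CPM injured and 2870 ± 1042 CPM uninjured and H2-D1, whose class I relatives share sequence with it, 1440 ± 137 CPM injured and 977 ± 187 CPM uninjured. Hox genes, which mark position along the body, had 1 of 16 higher (none without C2C and C3B, none without the 6 shallower uninjured libraries, none with the 14 libraries fitted alone) and 1 lower. Of 31 Hox genes listed, only 21 had a row among the deposited counts, and Hoxa5, Hoxc6, Hoxc8 and Hoxc9 were among those without one. Of 21 lipid handling genes 4 were higher (2 without the 6 shallower uninjured libraries, 1 with the 14 libraries fitted alone) and 1 lower.

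Markers of other cells differed between the groups and from library to library. Neutrophil markers had 13 of 15 tested genes higher and summed to 212, 476, 892, 1987 and 6088 CPM in C1A, C1B, C2A, C2C and C3B, against 54.2 to 252 CPM in the uninjured flush, so that C1A lay inside the uninjured range. S100a8, a subunit of calprotectin, gave 20.3, 64.4, 132, 353 and 862 CPM in the injured libraries and 5.87 to 35.98 CPM with a median of 16.3 in the uninjured ones. Its partner S100a9 gave 48.6, 131, 255, 614 and 1813 CPM in the injured libraries and 13.2 to 83.2 CPM with a median of 40.3 in the uninjured ones. Hdc, which makes histamine, lacked counts in all uninjured libraries and had 9.31, 23.8, 44.4, 104 and 161 CPM in the injured ones, and the protease Adam8, also without a count in the uninjured ones, had 0, 22.2, 38.5, 44.02 and 145 CPM there. The chemokine receptor Cxcr2 was at 12.7, 71.9, 125, 211 and 833 CPM in the injured libraries and 0 to 26.99 CPM with a median of 12 in the uninjured ones. C3B held the highest value of each of these 5 genes.

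Erythroid markers had 8 of 11 tested genes higher (5 without C2C and C3B) and summed to 538, 1090, 976, 3701 and 3035 CPM in the injured libraries against 150 to 610 CPM in the uninjured flush, with C1A inside that range. Hbb-bs, a beta globin whose near copy makes its count uncertain, gave 171, 474, 329, 1759 and 1478 CPM in the injured libraries and 20.8 to 256 CPM with a median of 33.1 in the uninjured ones. Alas2, of haem synthesis, gave 28.8, 85.3, 57.5, 309.7 and 259.6 CPM in the injured libraries and 0 to 42.2 CPM with a median of 10.4 in the uninjured ones. The anion exchanger Slc4a1 gave 0, 7.19, 12.8, 94.2 and 81.5 CPM in the injured libraries and had no uninjured count. C2C and C3B were highest for each of these 3 genes. Platelet markers had 6 of 9 higher and summed to 1119, 1023, 1192, 730 and 1388 CPM in the injured libraries against 137 to 282 CPM in the uninjured flush, a difference present in all 5 libraries. B cell markers had 6 of 8 higher (3 with the 14 libraries fitted alone), with Pax5 at 77.8, 17.8, 12.5, 107 and 33.6 CPM in the injured libraries and 0 to 5.42 CPM with a median of 0 in the uninjured ones, and Cd79b at least 86.2-fold higher. T and NK markers had 3 of 11 higher (none without C2C and C3B, 1 without the 6 shallower uninjured libraries, 1 with the 14 libraries fitted alone).

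Smooth muscle markers had 9 of 13 tested genes higher, and summed to 1790, 1609, 1437, 1464 and 1240 CPM in the injured libraries against 351 to 1571 CPM in the uninjured flush. Myh11, the smooth muscle myosin, gave 401, 293, 197, 324 and 168 CPM in the injured libraries and 5.51 to 57.5 CPM with a median of 27.8 in the uninjured ones, with 9006 ± 819 CPM in the flushed wall. Cnn1 lacked counts in all uninjured libraries and was at least 118-fold higher, while Mylk averaged 202 ± 52.5 CPM injured and 51.8 ± 18.7 CPM uninjured and Tpm2, a tropomyosin, 67.5 ± 23.5 CPM injured and 2.89 ± 3.45 CPM uninjured. Acta2 did not pass (377 ± 29.6 CPM injured and 304 ± 275 CPM uninjured, adjusted p = 0.638), though within batch 1 it was higher (2.19, adjusted p = 0.00839). It had 411, 364, 394, 382 and 334 CPM in the injured libraries and 46.1 to 935 CPM with a median of 182 in the uninjured ones, so that the highest uninjured library, E2A, stood above every injured one. Fibroblast markers overlapped, at 641 to 1261 CPM in the injured flush and 581 to 1324 CPM in the uninjured flush, with 2 of 10 higher (none without C2C and C3B, none without the 6 shallower uninjured libraries, 1 with the 14 libraries fitted alone).

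Macrophage markers had 7 of 13 tested genes higher (2 without C2C and C3B, 3 without the 6 shallower uninjured libraries) and summed to 253, 322, 275, 436 and 1120 CPM in the injured libraries, against 84.0 to 247 CPM in the uninjured flush. Lyz2 gave 124, 182, 128, 247 and 819 CPM in the injured libraries and 42.2 to 113 CPM with a median of 74.5 in the uninjured ones, and lost its call without C3B (log2 fold change 1.11, adjusted p = 0.0559, against 1.93 ± 0.45). Cd14 averaged 19.3 ± 9.24 CPM injured and 1.02 ± 1.85 CPM uninjured. Lymphatic markers had 3 of 6 higher, with sums of 169 to 191 CPM in the injured flush against 52.4 to 93.4 CPM in the uninjured flush: Mmrn1 was at least 250.5-fold higher and Lyve1 gave 48.2, 42.8, 45.03, 50.5 and 45.5 CPM in the injured libraries and 0 to 20.2 CPM with a median of 2.50 in the uninjured ones. Prox1 and Reln of the lymphatic list did not pass, and Lyve1 is also a member of the macrophage list. The 7 tested mesothelial markers did not pass. Adipocyte markers had 2 of 9 higher (none with the 14 libraries fitted alone), and Schwann cell and neuron markers 3 of 7 (1 without C2C and C3B, none without the 6 shallower uninjured libraries, 1 with the 14 libraries fitted alone). The part of these cells in the results above was not tested. Leaving out C2C and C3B was no test of it, because the injured libraries kept still held such markers. Platelet sums in C1A, C1B and C2A were 1119, 1023 and 1192 CPM, against 137 to 282 CPM in the uninjured flush. In the fit without C2C and C3B 9 of 15 neutrophil markers, 5 of 11 erythroid, 5 of 9 platelet and 4 of 7 B cell markers were still higher. In it NF-kB genes had 13 of 22 higher, glucocorticoid-responsive genes 12 of 19, NRF2 genes 14 of 24, the SOCS list 12 of 24 and smooth muscle markers 9 of 13, while the lists whose counts moved further are marked where they are described.

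**Figure D4:**
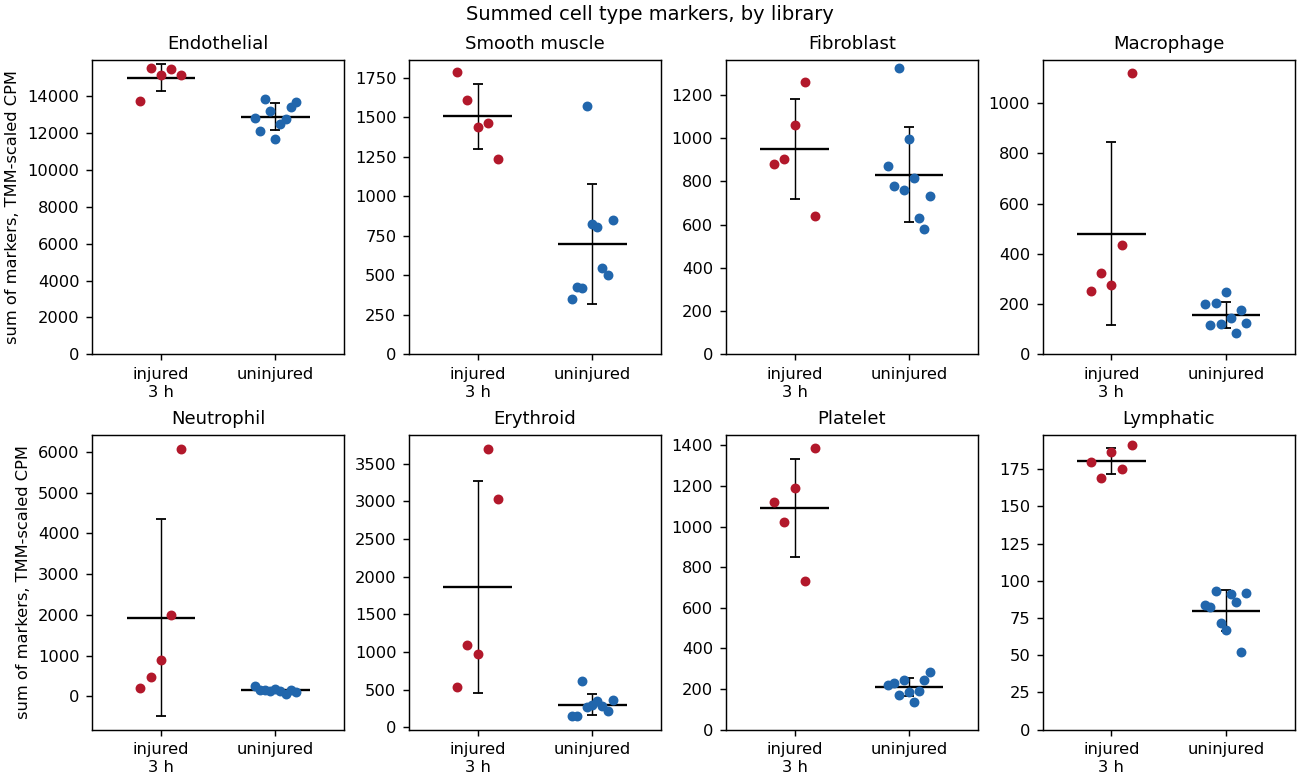
Summed TMM-scaled CPM of the markers of 8 cell types in each library, with the 5 injured 3 h libraries at left and the 9 uninjured ones at right in each panel; lines are means and bars are SDs. Platelet, lymphatic and macrophage sums of all injured libraries lie above all uninjured ones, narrowly for macrophages (lowest injured 253 CPM, highest uninjured 247 CPM). Neutrophil and erythroid sums are highest in C2C and C3B, and of the injured libraries only C1A lies inside the uninjured range.

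The 12 largest rises by fold, among genes with a settled symbol and at least 20 CPM on average in the injured flush, were of genes with no count in any uninjured library. Col6a3, a collagen of the vessel wall, gave 108, 88.7, 69.7, 13.4 and 90.8 CPM in the 5 injured libraries, a level at least 674-fold higher. Chst3, a sulfotransferase of chondroitin, gave 62.2, 69.7, 40.6, 47.9 and 31.4 CPM in them and was at least 436-fold higher. Gimap3 and Pik3r5, genes of lymphocytes and leukocytes, gave 74.5, 1.25, 8.44, 57.4 and 27.3 CPM (Gimap3) and 17.3, 6.56, 0, 37.9 and 104 CPM (Pik3r5) in the injured libraries. Ctrb1, a digestive enzyme of the pancreas, was carried by 1 library, with 0, 2.81, 302, 7.66 and 0 CPM in the injured libraries, almost all of it in C2A. Kbtbd11, Bean1, Csf2rb2 and D8Ertd82e were also among the 12.

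The largest falls were of another kind. Ctnna2, Pax9, Adgrb3, Fam155a, Erbb4 and Slc26a4 had no count in any injured 3 h library, and were at least 170.3-, 190.1-, 142-, 113-, 99.7- and 126-fold lower against a floor of 3 counts over the group. Cntnap2 gave 0, 0, 0, 1.53 and 0 CPM in the injured libraries and 22.9 to 314 CPM with a median of 86.96 in the uninjured ones (log2 fold change -8.72 ± 1.73, edgeR adjusted p = 0.000439). Dlg2 was at 0 in all injured libraries but C2A, and ran from 0 to 161 CPM in the uninjured flush. Its log2 fold change was -7.21 ± 1.80, and -11.54 without C2A. Adgrl3 had a pooled ratio of the uninjured over the injured level of 404 (95% interval 72.4 to 16000). Ctnna2, Adgrb3, Erbb4, Cntnap2, Dlg2 and Adgrl3 are known for synapses and neurons, and span 1098, 762, 1076, 2245, 1973 and 805 kb of the genome. The calls of Adgrb3 and Fam155a were lost without C2C and C3B and without the 6 shallower uninjured libraries, at fitted log2 fold changes of -10.79 and -9.53 for Adgrb3 (-10.74 with all libraries) and -10.52 and -8.69 for Fam155a (-10.47 with all libraries). Fitted values against a group at 0 depend on the prior count. In the injured flush at 48 h Pax9, Slc26a4, Ctnna2 and Cntnap2 averaged 1.02 ± 1.18, 1.15 ± 1.62, 5.55 ± 10.4 and 17.5 ± 26.9 CPM. They, Adgrb3, Fam155a, Erbb4 and Adgrl3 were lower there than in the uninjured flush too, whereas Dlg2 did not pass. Pax9, Slc26a4, Ctnna2, Cntnap2 and Adgrl3 were lower at 3 h than at 48 h. Adgrb3, Fam155a, Erbb4 and Dlg2 did not pass in that comparison.

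Gene span moved with the falls over the whole table. Among 13813 genes with a span in GENCODE M21, the share lower in the injured 3 h flush was 5.76% for spans under 5 kb, 7.58% for 5 to 20 kb, 10% for 20 to 50 kb, 15.4% for 50 to 100 kb, 16.1% for 100 to 200 kb, 23.1% for 200 to 500 kb and 41.8% for the 177 genes over 500 kb. The share higher was 13.6%, 14.7%, 17.4%, 18.3%, 19.3%, 13% and 6.21% in the same bins. Without the 6 shallower uninjured libraries the share lower was 17.5% over 500 kb and 5.94% under 5 kb, and without C2C and C3B it was 22.6% over 500 kb and 2.92% under 5 kb. Genes over 500 kb summed to 10520 to 13020 CPM in the injured 3 h flush and 11530 to 17000 in the uninjured flush. They summed to 9185 to 13290 CPM in the injured flush at 48 h and 23820 to 24160 in the flushed wall.

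Olfactory and vomeronasal receptor genes, which are known for smell and whose members resemble each other, so that single counts are uncertain, summed to 840 to 1695 CPM in the injured 3 h flush and 1115 to 6182 CPM in the uninjured flush, against 37.6 to 64.2 CPM in the flushed wall. In the injured flush at 48 h these receptor genes summed to 369 to 2034 CPM. The 4 highest sums were in E1A, E1B, E3B and E3C, which are among the 6 shallower uninjured libraries. The part of these signals in the falls of long genes was not tested.

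**Figure D5:**
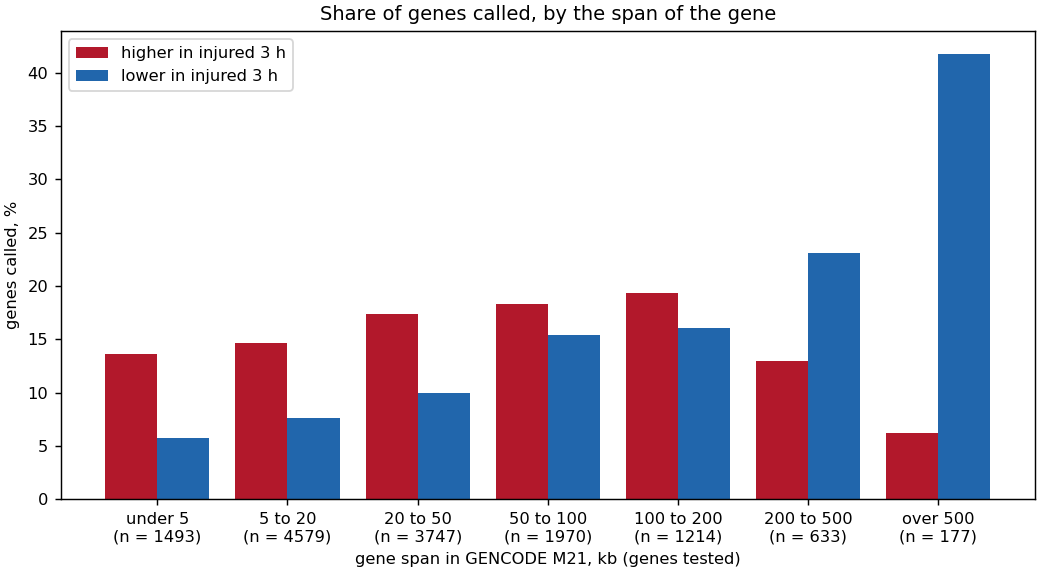
Share of tested genes called higher (left bar, red) or lower (right bar, blue) in the injured 3 h flush, in 7 bins of gene span in kb with the number of genes in each. The share lower climbs with span, to 41.8% over 500 kb.

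Falls with the smallest p included genes at moderate levels and of varied span. Gria3 and Ncam1 span 277.7 and 296.8 kb, in the bin of 200 to 500 kb where 23.1% of genes were lower. Nova1 spans 124.4 kb, Isl1 11.41 kb and Wnk4 16.84 kb. Gria3, a glutamate receptor subunit, gave 72.8, 84.05, 87.9, 51.7 and 51.9 CPM in the injured libraries and 243 to 349.5 CPM with a median of 269.8 in the uninjured ones (-1.998 ± 0.15, edgeR adjusted p = 7.31e-10), and Ncam1, a neural adhesion molecule, 73.2, 105, 108, 97.6 and 35.7 CPM in the injured libraries and 283 to 407 CPM with a median of 362 in the uninjured ones (-2.05 ± 0.19, adjusted p = 9.14e-09). Nova1, a splicing factor, averaged 39.4 ± 10.4 CPM injured and 173 ± 33.2 CPM uninjured, the LIM homeodomain factor Isl1 23.3 ± 8.07 CPM injured and 119 ± 21.97 CPM uninjured and the kinase Wnk4 21.6 ± 6.32 CPM injured and 109 ± 18.3 CPM uninjured (-2.13 ± 0.20, -2.34 ± 0.24 and -2.34 ± 0.25). In the injured flush at 48 h, Gria3 averaged 71.7 ± 12.7, Ncam1 109.9 ± 19.01, Isl1 25.6 ± 8.64 and Wnk4 16.6 ± 4.79 CPM. At an adjusted p under 0.05 the 3 h and 48 h abdominal flushes did not differ past the threshold for Gria3, Isl1 and Wnk4 (adjusted p = 0.891, 0.752 and 0.255). Both are abdominal, and for these genes wound and segment cannot be told apart.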

How the data were processed

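The deposited file holds raw gene counts per library, made by the authors; the submitters' processing notes name HISAT2 2.0.3, HTSeq, DESeq2 1.14.1 and GRCm38 without their roles. Libraries were made from total RNA with the NuGEN Ovation Ultralow Library V2 kit, per the labels' protocols. No source states the strand setting or annotation, and overlapping genes cannot be told apart. Of 21119 rows, 23 carry symbols turned into date numbers by a spreadsheet and were kept but not named.

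All 26 libraries entered 1 fit with TMM scaling, the group-aware filter on low counts and edgeR 4.0.16's quasi-likelihood test (R 4.3.3), with Benjamini-Hochberg adjustment over 13884 genes. The fit held no term for mouse, though the uninjured flushes, the 48 h flushes and the wall samples share mouse labels. A standard error is the log2 fold change over the square root of the test's F. Libraries of a group differed by 7.21 to 34.1 chi-square units per degree of freedom, so none was counted as a copy. Steps were tested on simulated data. Intervals of a ratio are 95% exact binomial ones of the split of counts and cover counting error only, and a floor of 3 counts over a group stands for an absent gene. Promoters are RefSeq's on GRCm38.p6 and spans GENCODE M21's.

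The groups and lists were chosen with earlier results of these data known. Named are up to 12 genes a direction by size and by p with at least 20 CPM, and up to 4 members a list and direction plus abundant ones that did not pass; Myc, Sele, Zbtb16, Klf2, Klf4 and Mgp were added after their values were seen. A few genes that this rule names are not reported here. Alternatives were other scalings and filters, fewer libraries, batch, DESeq2 1.42.0, limma 3.58.1 voom, thinned counts and leaving out each library. The fit without C2C and C3B and leaving out each 48 h library were chosen after seeing the data.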

Additional observations from a re-analysis of the deposited data

Results flagged for a closer look

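Single libraries stood apart from the rest of their group in 49 of 406 groups of values, by the gap to the nearest library over the whole range. For normally spread values chance sets about 1 in 20 groups apart in this way. These values are not all of that kind: where only 1 library of a group had a count, it was set apart automatically. The rate of 1 in 20 is therefore no measure for the 49 of 406. All values are TMM-scaled CPM.

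Among the injured 3 h libraries, C3B was highest for Il17ra (191), Slc39a14 (120.9), Slc2a3 (117), Nfil3 (28.1), Lyz2 (819), Cxcr2 (833) and the macrophage sum (1120), and lowest for Ppargc1a (0). C2A was highest for Ctrb1 (302), Efnb2 (590.4), Wnk4 (32.5), Edn1 (509) and Dlg2 (1.88). C2C was lowest for Adgrg1 (203), Fkbp5 (91.1) and Hsp90aa1 (53.6), and highest for Cntnap2 (1.53) and Ndc80 (7.66). C1A was highest for Fos (160.3), Ddx21 (87.2), Rfc5 (70.7) and Tpm2 (108) and lowest for the endothelial sum (13700). C1B held the only count of Adgrl3 (0.312).

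Among the uninjured libraries, E1C was highest for Cdkn1a (43), Spry4 (15.7), Tgfb1 (40.2), Sparcl1 (6.78), Il17ra (0.782), Alas2 (42.2), Hbb-bs (256), the erythroid sum (610.3) and the adipocyte sum (961). E2A was highest for Ccnd1 (197), Smad3 (96), Acta2 (935), Pax5 (5.42), Ccl2 (0.834) and the smooth muscle sum (1571), and lowest for Wnk4 (67.2). E1A was highest for Fam155a (100.1), Ier5 (56.8) and Tnfrsf11a (22.5), E1B lowest for Ski (449.9), E1C also highest for Ube2c (0.261), E3C highest for Ndc80 (0.465), E2C highest for Dusp1 (1554) and Egfl7 (382), and E3A highest for Hey2 (450).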

How the results depend on the processing

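No paired analysis was possible because the injured 3 h and uninjured libraries come from different mice and share no replicate numbers. Of the main counts, 2230 genes higher and 1535 lower, and 1253 and 825 at least 2-fold, these moved by over 1.5 times. With only the 14 libraries in the fit 1297 genes were higher and 637 at least 2-fold higher. With counts thinned to the smallest total 1210 were higher and 580 at least 2-fold higher. Without the 6 shallower uninjured libraries 1420 were higher. Without C2C and C3B 859 were lower and 444 at least 2-fold lower. Within batch 1, 643 were higher and 253 lower, 435 and 167 at least 2-fold; within batch 2, 748 and 200, 494 and 125; within batch 3, with 1 injured library, 953 and 377, 796 and 287. Leaving out 1 library at a time gave 1790 to 2272 higher, 1028 to 1754 lower, 1010 to 1335 at least 2-fold higher and 527 (without C3B) to 937 at least 2-fold lower; against 48 h, leaving out each of the 5 libraries of 3 h and, chosen after seeing the data, each of the 9 of 48 h gave 1015 to 1291 higher and 1027 to 1435 lower. The cause was not tested. DESeq2 called 2134 higher and 2146 lower.

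Single genes turned direction as follows (log2 fold changes). Ube2c was at -1.51 without C2C and C3B and at -2.84 within batch 1. Within batch 1, Cyr61 was at 0.54, Edn1 0.31, Cxcl12 0.54 and Sele 1.05. Within batch 2, Fos was at -0.26, Egr1 -0.28, Zfp36 -0.19, Mki67 1.12, Ccnd1 -0.24 and Acta2 -0.53. Within batch 3, Dusp1 was at 0.46 and Klf2 at 0.12. Without the 6 shallower uninjured libraries Sele was at 0.33 and Mki67 at 0.079, and by limma voom Mki67 at 0.026. Leaving out 1 library gave -0.038 to 0.19 for Zfp36, -0.20 to 0.088 for Dusp1 and -0.49 to 0.074 for Mki67. Of these genes only Cyr61, Edn1 and Ube2c had passed with all libraries. Of the 187 named genes, 186 of 186 kept side and direction under DESeq2, all 187 under relative log expression and upper quartile scaling, 186 with batch as a term, 180 under limma voom, 179 without the 6 shallower uninjured libraries, 178 of 186 without C2C and C3B, 125 within batch 1 (55 lost their call), 137 within batch 2 (43 lost) and 147 of 184 within batch 3 (35 lost). Depth limits the low genes: the uninjured totals were as small as 1755773 counts.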
